A study of Mus musculus with 4 samples.

Results

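The transcripts described here encode the 3 Igf2 mRNA-binding proteins Igf2bp1, Igf2bp2 and Igf2bp3, the let-7 antagonists Lin28a and Lin28b, and the chromatin protein Hmga2. They were chosen by name, as a regulatory circuit of the embryo that tumours take up again, and are 6 of the 29835 genes with a UMI (a molecule counted once) in the series. All 6 were detected in each of the 4 libraries.

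Igf2bp proteins bind mRNAs, many of them marked by N6-methyladenosine, and shield them from decay. Lin28 proteins bind let-7 precursors and block their maturation, and mature let-7 pairs with sites in the 3′UTRs of Hmga2, of the Lin28 genes and of the Igf2bp genes. Hmga2 is an architectural chromatin protein that bends AT-rich DNA. Most of these genes are active in the embryo and quiet in adult tissue, although Igf2bp2 is also made by many adult cells, and their return in ovarian carcinoma is the reason that inhibitors such as BTYNB, a small molecule against Igf2bp1, are studied.

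The samples were single-cell RNA-seq libraries of tumour and immune cells from the ascites of C57BL/6 mice, female and 6 weeks old at injection per the study's methods. They carried intraperitoneal ID8-Trp53-/- cells, a mouse ovarian surface epithelial line without p53 that had been transduced with an iRFP lentivirus. Injections were given 2 times a week from day 7 after engraftment to an endpoint near 3 mL of ascites. Mice of the control library received DMSO and the isotype antibody, the BTYNB library BTYNB (50 mg/kg per the labels) and the isotype antibody, the anti-PD-1 library DMSO and the blocking antibody RMP1-14 (100 ng per dose per the labels), and the combination library BTYNB with RMP1-14. The study's methods give other amounts for both agents, so the doses are uncertain. All injected cells carried the Trp53 deletion, and none of these libraries is from cells deleted for Igf2bp1. Each group was 1 library in which several animals were pooled, so animals cannot be told apart, no difference between groups has a replicate check, and no test was run. All intervals below are 95% intervals that cover counting error only, and libraries, cages, capture and treatment cannot be told apart. They are exact, except those of a difference between log2 ratios, which use a normal approximation.

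The 4 libraries held 7858, 19247, 12163 and 7074 deposited cells (control, BTYNB, anti-PD-1 and combination, the order used throughout), with 78603888 to 114600397 UMIs each and 0 to 4 barcodes in common between any pair. Tumour cells were gated by at least 5 UMIs of Krt7, Krt8, Krt18, Krt19 and Wt1 and no Ptprc, which left 7114, 3606, 10923 and 4369 cells with medians of 9783, 15221, 7160 and 11503 UMIs. Keratin and Wt1 UMIs summed to 2026 to 2736 CPM (UMIs of a gene scaled by all UMIs of the gate) in this gate, and the 6 myeloid markers to 29.1 to 83.4 CPM against 7931 to 12322 CPM in myeloid cells. The 3 mesothelial markers (539 to 724 CPM) and the 5 fibroblast markers (284 to 471 CPM) were also present in the tumour gate, so the label "tumour" rests on the keratin and Wt1 rule. Myeloid cells (at least 3 UMIs of Lyz2 and Csf1r) numbered 346, 3224, 495 and 1410. T cells (at least 2 UMIs of Cd3d, Cd3e and Cd3g) numbered 12, 2466, 23 and 141 and B cells (at least 3 UMIs of Cd79a and Cd79b) 9, 3314, 6 and 175, so the T and B gates are described in the BTYNB and combination libraries only. In BTYNB the T gate held 2337 CPM of the 5 T markers and 564 CPM of the myeloid markers, and the B gate 3438 CPM of the 4 B markers and 503 CPM of the myeloid markers. In combination the myeloid markers exceeded the gate's own, at 2292 against 1143 CPM in the T gate and 2740 against 1829 CPM in the B gate, and 103 cells met more than 1 leukocyte gate, so the combination gates are called by their rule and not as T or B cells.

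Matches to the let-7 family were sought in the members, and some were foreseen because let-7 is known to pair with these genes. The 9 mouse let-7 and miR-98 mature miRNAs in the RefSeq table share the seed GAGGUAG, shown in capitals (bases 2 to 8) for 3 of them, 5′ to 3′.
mmu-let-7a-5p: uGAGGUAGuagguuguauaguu
mmu-let-7g-5p: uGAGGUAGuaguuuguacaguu
mmu-miR-98-5p: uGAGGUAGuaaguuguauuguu
The complement of the seed, CTACCTC, or CTACCTCA for the longer match with an A after it, was searched on the transcript strand in the longest annotated 3′UTR of each gene (GENCODE M21, GRCm38, a build older than the GRCm39 named in the submitters' processing notes, so these coordinates were used for sequence only). Matches stand in capitals in the windows below, 1 for each gene, with a second full match of Igf2bp1 and a shorter match of Hmga2 as the genes with several.
Igf2bp1, chr11:95961774-95961799, minus strand: ctgtgcgaagtaaaCTACCTCAaggt
Igf2bp1, chr11:95959353-95959378, minus strand: agcagtgctattaaCTACCTCAgccc
Igf2bp2, chr16:22059469-22059494, minus strand: cacacaaataaaagCTACCTCAggtg
Igf2bp3, chr6:49086783-49086808, minus strand: gcatttttactcaaCTACCTCAggta
Lin28a, chr4:134005185-134005210, minus strand: cacagcctgttgaaCTACCTCAtttt
Lin28b, chr10:45381018-45381043, minus strand: cccgggcgggaagtCTACCTCAtgca
Hmga2, chr10:120364220-120364245, minus strand: ccgacattcaatttCTACCTCAgcat
Hmga2, chr10:120362984-120363008, minus strand: cccactcctcaataCTACCTCtgaa

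Every member held at least 1 CTACCTCA, a match found in 3.06% of 21020 genes, whereas CTACCTC was found in 9.02%. The median 3′UTR of all these genes was 961 bases, shorter than that of any member, so these shares are not matched for length. Igf2bp1 held 4 matches to CTACCTC in 6337 bases, 3 of them CTACCTCA, and Hmga2 held 4 in 3014 bases, 1 of them CTACCTCA. Lin28b also held 4 (1 of them CTACCTCA), Lin28a 2 (both CTACCTCA), and Igf2bp2 and Igf2bp3 1 each. Among genes whose 3′UTR was within 25% of the length of that of Hmga2, 0.138% had at least 4 matches, and for Igf2bp1 the same share was 0.264%. For CTACCTC in the number of each other member it was 11.5% (Igf2bp2), 12.9% (Igf2bp3), 1.95% (Lin28a) and 0.238% (Lin28b). For CTACCTCA it was 0.396% (Igf2bp1), 3.77% (Igf2bp2), 4.17% (Igf2bp3), 0.264% (Lin28a), 8.76% (Lin28b) and 5.50% (Hmga2). The paralog Hmga1 had 1 match to CTACCTC and none to CTACCTCA. A match is a description of sequence, and mature let-7 was not measured in these libraries.

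Hmga2 differed most between libraries. In tumour-gated cells it stood at 22.1, 11.9, 166 and 13.7 CPM in library order, on 1655, 688, 13720 and 767 UMIs. The anti-PD-1 library lay far above the other 3, and both libraries that received BTYNB lay below control. Anti-PD-1 was 7.54-fold above control (7.16 to 7.94), BTYNB was at 0.539 of control (0.492 to 0.589), and combination was at 0.0826 of anti-PD-1 (0.0767 to 0.0888). Combination and BTYNB lay close, with a ratio of 1.16 (1.04 to 1.28).

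A difference was called where it passed 1.5-fold on the log2(CPM + 1) scale, among 13176 genes with at least 100 UMIs in the tumour gate of at least 1 library. Of all these genes, 6.63% were called between BTYNB and control, 8.79% between anti-PD-1 and control, 9.78% between combination and anti-PD-1 and 0.638% between combination and BTYNB. Among the 4 members that reached 100 UMIs, Hmga2 was called in the first 3 of these contrasts, and Igf2bp1, Igf2bp2 and Igf2bp3 in none of the 4. Lin28a and Lin28b stayed under 100 UMIs in every library.

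**Figure D1:**
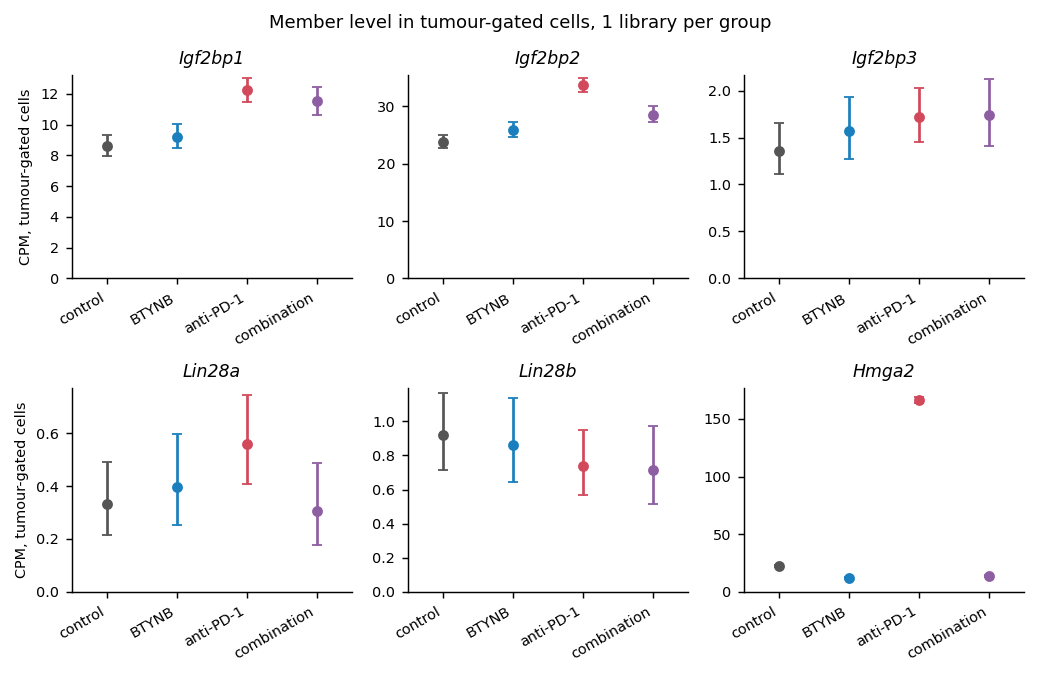
CPM of each member (vertical axis, from 0, a separate scale for each gene) in tumour-gated cells of the 4 libraries, with exact Poisson 95% intervals as bars. Hmga2 stands at 166 CPM in anti-PD-1 and between 11.9 and 22.1 CPM in the other libraries, while Igf2bp1 spans 8.60 to 12.2 CPM.

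Igf2bp1, the target of BTYNB, was measured at 8.60 CPM (7.95 to 9.29), 9.21 CPM (8.44 to 10.02), 12.2 CPM (11.5 to 13.0) and 11.5 CPM (10.6 to 12.4) in library order. Its transcript was not lower in either library that received BTYNB than in the matching library without it beyond counting error, with ratios of 1.07 for BTYNB over control (0.953 to 1.20) and 0.941 for combination over anti-PD-1 (0.851 to 1.04). Anti-PD-1 exceeded control 1.42-fold (1.29 to 1.57) and combination exceeded BTYNB 1.249-fold (1.11 to 1.40). These values concern the transcript, and nothing here measured the protein or its binding. Without an Igf2bp1-deleted library, the level that would mark its absence is unknown.

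Igf2bp2, the paralog with the widest adult expression, was measured at 23.8, 25.9, 33.7 and 28.6 CPM. Anti-PD-1 was 1.41-fold above control (1.33 to 1.502), combination was at 0.849 of anti-PD-1 (0.798 to 0.903), and BTYNB was 1.09-fold above control (1.01 to 1.16). Igf2bp3 was sparse at 1.36, 1.57, 1.72 and 1.74 CPM (91 to 142 UMIs), and each of its 4 ratios had an interval that included 1, so no difference was detectable at this depth.

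Lin28a and Lin28b, the let-7 antagonists, were near the limit of detection. Lin28a gave 25, 23, 46 and 17 UMIs in the tumour gates, or 0.333, 0.397, 0.558 and 0.305 CPM, and Lin28b gave 69, 50, 61 and 40 UMIs, or 0.920, 0.864, 0.740 and 0.717 CPM. The 4 ratios of Lin28b had intervals that included 1. For Lin28a, anti-PD-1 exceeded control 1.67-fold (1.01 to 2.84) and combination was at 0.546 of anti-PD-1 (0.294 to 0.971), both at the edge of what these counts resolve.

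**Figure D2:**
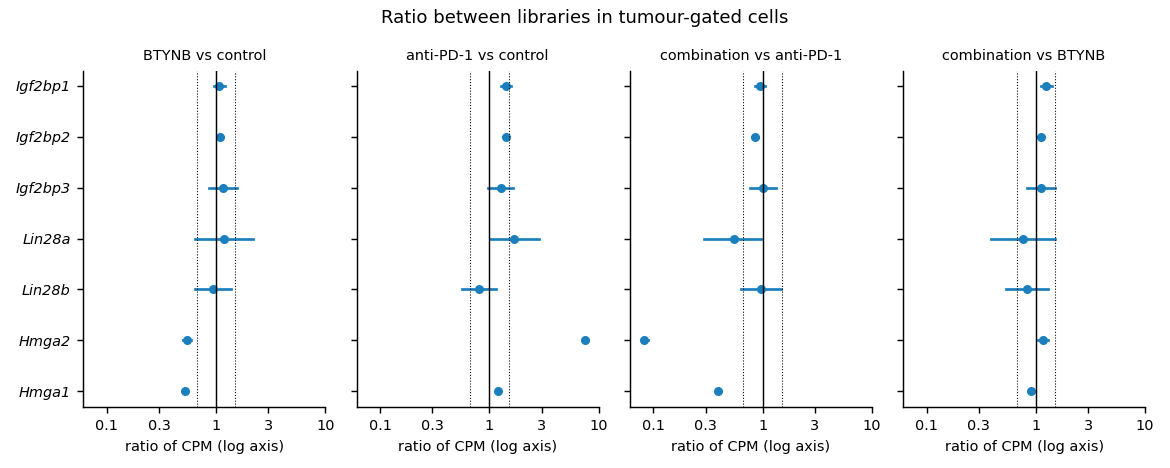
Ratio of CPM between libraries in tumour-gated cells (log axis) for the 6 members and Hmga1, with exact intervals as bars, a solid line at 1 and dotted lines at 1.5-fold either way. Hmga2 lies outside the dotted lines in 3 contrasts and the 4 Igf2bp1 ratios lie inside them.

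The Hmga2 UMIs of the anti-PD-1 library were concentrated in few cells. Cells with at least 5 Hmga2 UMIs made up 8.86% of its tumour-gated cells (8.34 to 9.41) and held 65.7% of the Hmga2 UMIs, and 1 cell held 38. In the other libraries 0.0703% (control), 0.638% (BTYNB) and 0.252% (combination) of tumour-gated cells had at least 5, although the anti-PD-1 cells had the lowest median depth. When the same cells were thinned to 5000 UMIs (cells below that depth were left out), 9.07%, 4.62%, 29.9% and 5.23% held Hmga2, against 17.02%, 10.7%, 32.8% and 11.5% without thinning. For Igf2bp1 the thinned shares were 4.36%, 4.22%, 5.69% and 5.15%, and the unthinned shares were 7.93%, 11.1%, 8.45% and 11.8%.

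The tumour gate was also divided by its UMIs of Cd24a, Gkn2 and Krtdap. Cd24a is not particular to tumour cells here, since it stood at 32.9, 21.7, 192 and 25.01 CPM in tumour-gated and 107, 174, 109 and 251 CPM in myeloid cells. Cells with at least 5 UMIs of the 3 genes (Cd24a-high) were 6.82%, 12.01%, 25.4% and 14.4% of tumour-gated cells. In them Cd24a stood at 121, 62.4, 536 and 72.5 CPM, of 564, 420, 2357 and 611 CPM summed over the 3 genes. Cd24a was thus the smaller part in every library, and in BTYNB only 2 of the 3 genes had a UMI. The name Cd24a-high therefore stands for the rule and not for one cell state. In anti-PD-1, Hmga2 stood at 412 CPM in Cd24a-high cells and 54.9 CPM in the other tumour-gated cells, a ratio of 7.51 (7.22 to 7.82). The ratio was 0.884 in control (0.738 to 1.05), 1.35 in BTYNB (1.13 to 1.60) and 1.01 in combination (0.835 to 1.20). The gate did not take like cells from each library, by the marker sums above and by depth. Cd24a-high cells had medians of 13983, 26660, 9112 and 15810 UMIs, against 9515, 13753, 6547 and 10862.5 in the rest. In anti-PD-1, 32.5% of 12325 genes passed 1.5-fold in this comparison, against 9.46%, 7.64% and 14.1% in control, BTYNB and combination.

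Outside the Cd24a-high cells the order of the libraries for Hmga2 was the same and the distances were smaller. The remaining tumour-gated cells had 22.3, 11.1, 54.9 and 13.7 CPM, so anti-PD-1 was 2.46-fold above control (2.31 to 2.62) and combination was at 0.250 of anti-PD-1 (0.229 to 0.273). BTYNB was at 0.497 of control (0.448 to 0.550) in these cells. In cells without any UMI of the 3 genes, Hmga2 stood at 24.96, 11.2, 34.95 and 13.7 CPM, and in anti-PD-1 it was 78.6, 335 and 445 CPM in cells with 1 to 4, 5 to 9 and at least 10 such UMIs. In control the corresponding levels were 17.9, 16.4 and 30.1 CPM. How much of the Hmga2 outside Cd24a-high cells is free RNA from those cells was not tested.

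Igf2bp2 shared this division in part. It was higher in Cd24a-high than in other tumour-gated cells of anti-PD-1 (40.1 against 30.8 CPM, ratio 1.30, 1.20 to 1.41) and lower in those of control (15.4 against 24.7 CPM, ratio 0.626, 0.510 to 0.760) and combination (20.1 against 30.6 CPM, ratio 0.656, 0.566 to 0.758). In BTYNB the ratio was 0.886 (0.776 to 1.01). Outside the Cd24a-high cells, combination and anti-PD-1 no longer differed in Igf2bp2 beyond counting error, with a ratio of 0.995 (0.927 to 1.07). Igf2bp1 ran at 10.9 CPM in Cd24a-high and 12.8 CPM in other cells of anti-PD-1, a ratio of 0.849 (0.737 to 0.975), and the 3 other ratios had intervals that included 1.

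**Figure D3:**
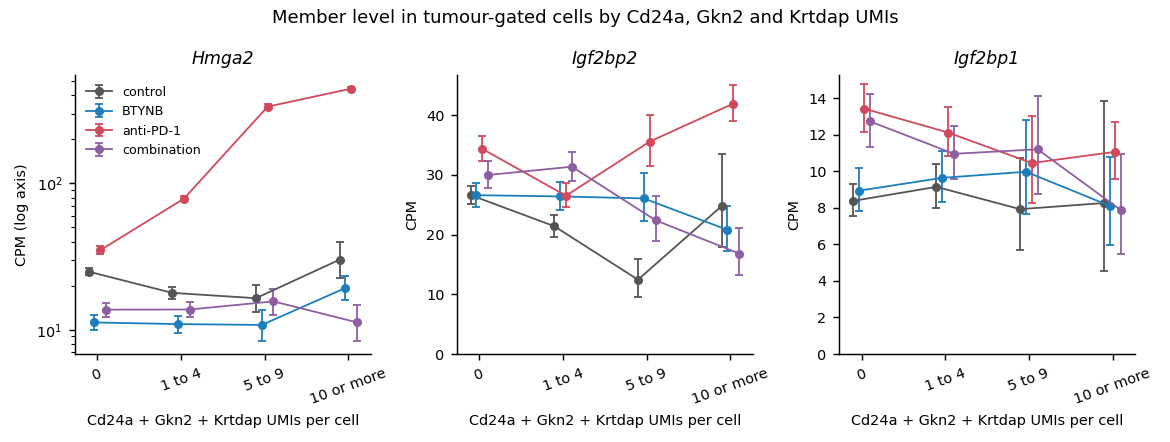
CPM of Hmga2 (log axis), Igf2bp2 and Igf2bp1 (axes from 0) in tumour-gated cells grouped by their summed UMIs of Cd24a, Gkn2 and Krtdap, for each library, with exact Poisson intervals. Hmga2 in anti-PD-1 goes from 34.95 CPM at 0 UMIs to 445 CPM at 10 or more, while no other library passes 30.1 CPM.

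Within the tumour gate, cycling cells (at least 3 UMIs of Mki67, Top2a and Ube2c) carried more Hmga2. They held 25.4, 16.1, 193 and 18.9 CPM against 19.3, 9.26, 145 and 9.83 CPM in non-cycling cells, higher in 4 of 4 libraries, with ratios of 1.32 (1.20 to 1.45), 1.74 (1.49 to 2.02), 1.33 (1.29 to 1.38) and 1.92 (1.66 to 2.22). Of all genes tested, 23.9% were higher in cycling cells in every library. Igf2bp3 was also higher in 4 of 4, at 1.77, 1.84, 2.07 and 2.32 CPM against 1.01, 1.40, 1.45 and 1.30 CPM, and the interval of its ratio included 1 in BTYNB. Lin28a was higher in 4 of 4 on 7 to 29 UMIs a class, with an interval away from 1 only in anti-PD-1 (ratio 2.18, 1.16 to 4.23). For Lin28b the interval included 1 in each library, so no difference was detectable at this depth. Igf2bp1 was lower in cycling cells of control (7.46 against 9.58 CPM, ratio 0.779, 0.662 to 0.914) and anti-PD-1 (10.7 against 13.4 CPM, ratio 0.801, 0.703 to 0.910), and its ratios in BTYNB and combination were 1.11 (0.929 to 1.32) and 0.891 (0.758 to 1.05). In non-cycling cells taken alone, anti-PD-1 was 7.54-fold above control (7.00 to 8.13) for Hmga2 and BTYNB was at 0.481 of control (0.422 to 0.548).

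**Figure D4:**
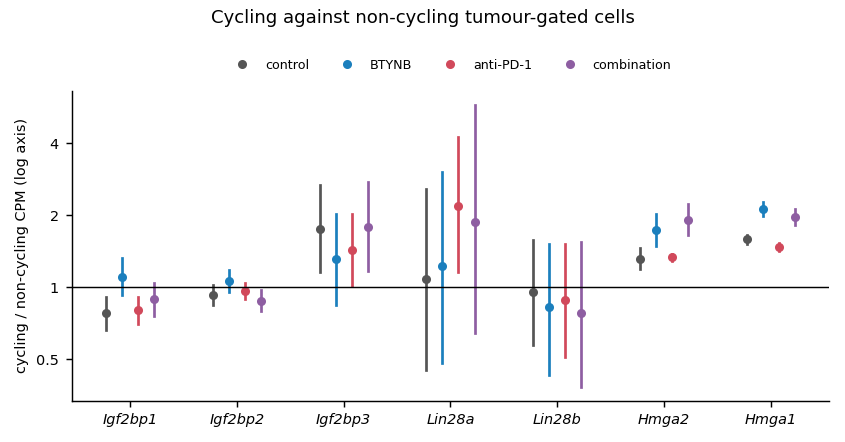
Ratio of CPM in cycling to non-cycling tumour-gated cells (log axis) for the 6 members and Hmga1 in each library, with exact intervals as bars and a line at 1. Hmga2, Hmga1, Igf2bp3 and Lin28a lie above 1 in all 4 libraries, Igf2bp3 and Lin28a with some intervals that include 1, whereas Igf2bp1 lies at or below 1.11.

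Hmga1, the paralog of Hmga2 and a let-7 target, resembled it in part. It stood at 112, 57.9, 133 and 52.4 CPM in tumour-gated cells, at 0.518 of control in BTYNB (0.497 to 0.539), 1.19-fold above control in anti-PD-1 (1.16 to 1.23) and at 0.394 of anti-PD-1 in combination (0.378 to 0.410). In Cd24a-high cells of anti-PD-1 it reached 254 CPM against 78.3 CPM in the others, and outside the Cd24a-high cells anti-PD-1 was below control at a ratio of 0.707 (0.681 to 0.734), the opposite side from Hmga2. The log2 ratio of combination over anti-PD-1 less that of BTYNB over control was -2.70 for Hmga2 (-2.87 to -2.54) and -0.39 for Hmga1 (-0.48 to -0.31). Outside the Cd24a-high cells it was -0.99 for Hmga2 (-1.18 to -0.80) and 0.35 for Hmga1 (0.25 to 0.45). The same quantity was -0.19 for Igf2bp1 (-0.40 to 0.03).

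Tumour-gated cells were next set beside myeloid cells of the same library. Igf2bp1, Igf2bp2 and Hmga2 were higher in tumour-gated than in myeloid cells in 4 of 4 libraries, as were 53.5% of all genes, so the direction does not set them apart. Igf2bp3 was lower in 4 of 4, as were 23.4% of all genes. Lin28a and Lin28b gave 0 to 9 UMIs in myeloid cells of any library, and no difference from tumour-gated cells was detectable at this depth. In myeloid cells Igf2bp1 stood at 1.34, 1.496, 3.61 and 1.43 CPM on 3, 27, 9 and 16 UMIs, and the ratio of tumour to myeloid cells was 6.42 (2.19 to 31.2), 6.15 (4.18 to 9.43), 3.39 (1.78 to 7.43) and 8.03 (4.91 to 14.1). Igf2bp2 stood at 11.6, 3.38, 22.8 and 5.73 CPM in myeloid cells, with ratios of 2.05, 7.66, 1.47 and 4.99. Igf2bp3 stood at 3.13, 3.99, 5.21 and 4.03 CPM in myeloid cells, with ratios of 0.435 (0.204 to 1.11), 0.394 (0.286 to 0.544), 0.331 (0.187 to 0.636) and 0.432 (0.3001 to 0.629). Among cells of at least 5000 UMIs in anti-PD-1, the log2 ratio on log2(CPM + 1) turned to -0.0641 for Igf2bp2 and came to -0.0876 for Igf2bp3, so neither direction held there beyond a small difference.

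Keratin and Wt1 UMIs were also present in the leukocyte gates, beside these low levels. The keratin and Wt1 UMIs of myeloid cells amounted to 25.7%, 9.64%, 30.3% and 13.7% of their level in tumour-gated cells. Whether they came as free RNA or from tumour cells captured with leukocytes was not tested. Fibroblast markers stood at 400.3, 39.3, 575 and 73.5 CPM in myeloid against 370, 471, 284 and 401 CPM in tumour-gated cells. They exceeded the tumour-gated level in control and anti-PD-1 and lay well below it in BTYNB and combination. The 3 mesothelial markers stood at 139, 59.0, 164 and 82.4 CPM against 580, 724, 539 and 679 CPM, below the tumour-gated level in every library. In the keratin proportion, Igf2bp1 would be at 2.21, 0.888, 3.70 and 1.58 CPM in myeloid cells, within the counting interval of the level found in control, anti-PD-1 and combination and below it in BTYNB. Igf2bp3 would be at 0.349, 0.152, 0.521 and 0.239 CPM, below the interval of the level found in all 4. Igf2bp2 would be at 6.11, 2.50, 10.2 and 3.93 CPM, also below the interval in all 4. Hmga2 would be at 5.67, 1.15, 50.3 and 1.89 CPM, within the interval in control and below it elsewhere. In myeloid cells without any keratin or Wt1 UMI (133, 2164, 159 and 482 cells), Igf2bp3 was 5.26, 4.49, 11.5 and 5.96 CPM on 4, 50, 8 and 22 UMIs, and Igf2bp1 had 0, 8, 1 and 1 UMIs, and the 0 in control has an upper bound of 4.85 CPM. Igf2bp2 in these cells was 3.94, 2.15, 8.64 and 3.79 CPM on 3, 24, 6 and 14 UMIs. None of these Igf2bp2 levels was above its keratin-proportion level of the whole myeloid gate.

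Reads at the Igf2bp3 locus may be shared with a neighbour. In the GENCODE annotation the gene (chr6:49085223-49214957, minus strand) overlaps Malsu1, a mitoribosome assembly factor on the plus strand, by 1529 bases at its 3′ end, and whether strand was used in counting is not given in the sources used here. Malsu1 went the other way, at 59.4, 62.4, 64.1 and 67.4 CPM in tumour-gated cells against 42.9, 37.6, 36.9 and 35.9 CPM in myeloid cells. Its part in the Igf2bp3 level was not tested.

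In the lymphocyte gates of the BTYNB library, Igf2bp1 stood at 2.31 CPM in T cells (17 UMIs) and 4.88 CPM in B cells (45 UMIs), where the keratin proportion would give 1.82 and 2.31 CPM. Igf2bp3 stood at 2.31 CPM in T cells and 3.47 CPM in B cells, and the keratin proportion would give 0.310 and 0.395 CPM. The 175 cells that met the B gate of the combination library had 16.6 CPM of Hmga2 on 25 UMIs from 9 cells (10.8 to 24.6), which did not differ from its tumour-gated 13.7 CPM beyond counting error (ratio of tumour to B gate 0.825, 0.555 to 1.28). With 2740 CPM of myeloid markers and 907 CPM of keratin and Wt1 in that gate, the value is not one of B cells alone. When all cells were thinned to 1000 UMIs, Igf2bp1 was present in 0.973% of tumour-gated cells of the BTYNB library and in 0.182% of its T cells, whose median depths were 15221 and 2143.5 UMIs.

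**Figure D5:**
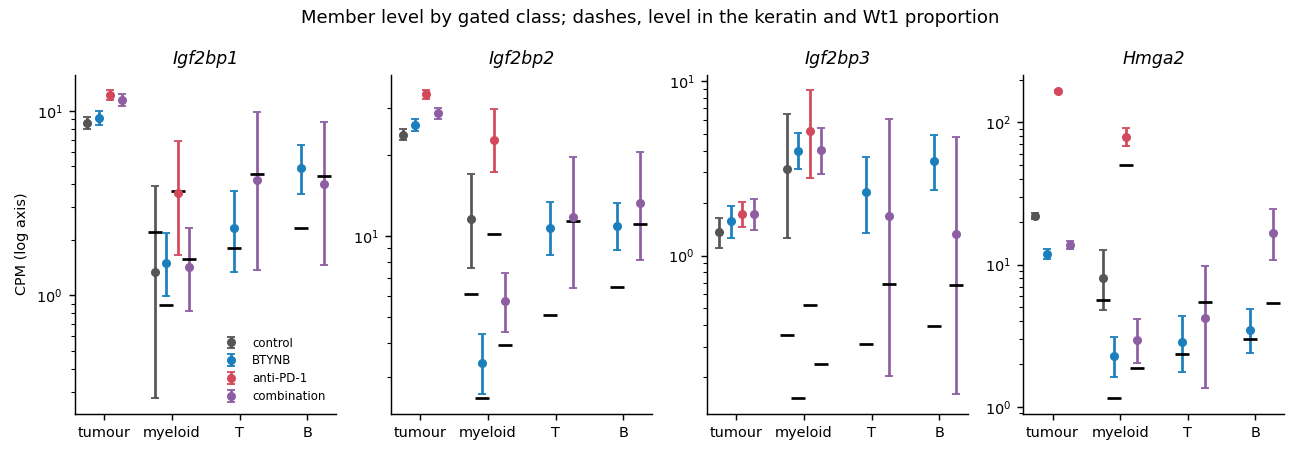
CPM (log axis) of Igf2bp1, Igf2bp2, Igf2bp3 and Hmga2 in the tumour, myeloid, T and B gates of each library, with exact Poisson intervals, gates under 50 cells left out. Black dashes give the level in the proportion of the keratin and Wt1 UMIs (tumour-gated CPM times that share). In myeloid cells Igf2bp2, Igf2bp3 (3.13 to 5.21 CPM) and Hmga2 lie above their dashes in 4 of 4 libraries. The interval of Hmga2 in control includes its dash.

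Hmga2 in leukocytes of anti-PD-1 was the highest of any library, at 79.3 CPM in myeloid cells (68.7 to 91.2) against 50.3 CPM in the keratin proportion, and at 20.2 CPM (11.02 to 33.8) in those without a keratin or Wt1 UMI. That proportion takes the whole tumour gate. Cd24a-high cells of anti-PD-1 held 412 CPM of Hmga2 and 3461 CPM of keratin and Wt1, against 54.9 and 2407 CPM in the others. The 50.3 CPM therefore depends on which tumour-gated cells are taken, and the source of the myeloid Hmga2 was not tested. In the other libraries the myeloid level was 8.04, 2.27 and 2.95 CPM. The transcribed pseudogene Hmga2-ps1 (chr1:176834624-176836133, GRCm38), counted as a gene of its own, showed the reverse, with 0 to 7 UMIs in tumour-gated cells and 4.47, 13.2, 4.81 and 17.1 CPM in myeloid cells. Reads can be split between the pair where their sequences are alike, so Hmga2 in myeloid cells is uncertain. In tumour-gated cells Hmga2-ps1 did not exceed 0.125 CPM.

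Cells with UMIs of both members of a pair were few, and each member by itself was found in a minority of cells. In tumour-gated cells thinned to 5000 UMIs, Igf2bp2 and Hmga2 occurred together in 1.143%, 0.673%, 5.54% and 0.745% of cells, 1.20, 1.33, 1.29 and 1.22 times the product of their shares. Igf2bp1 and Hmga2 occurred together in 0.364%, 0.200%, 1.53% and 0.230% of cells, 0.921, 1.03, 0.901 and 0.851 times the product. Pairs with Igf2bp3 or a Lin28 gene came to at most 19.9 cells in a library and are not described.

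The genes whose levels were most like a member's were sought over 16 points, each a library and a class of tumour-gated cells (cycling or not, Cd24a-high or not), on log2(CPM + 1). Hmga2 was closest to Ctsh, a lysosomal cathepsin (Pearson's r = 0.986), Pthlh, parathyroid hormone-like hormone (r = 0.981), and Spp1, osteopontin (r = 0.981). Pthlh ran from 2.40 to 679 CPM over these points and Spp1 from 7.39 to 582 CPM. Igf2bp2 was closest to Acadl, an acyl-CoA dehydrogenase (r = 0.958), then Dusp23 (r = 0.904) and Ankrd50 (r = 0.890), and Igf2bp1 to Cldn12, a claudin (r = 0.810), then Dglucy (r = 0.800) and Sdc3 (r = 0.792). For Igf2bp3 they were Gm19426, Dnajc19 and Pam16 (r of 0.837 to 0.899), and for the Lin28 genes, at 111 and 220 UMIs in all, they rest on counts too few to describe.

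With leukocytes included (16 points of cycling tumour, non-cycling tumour, myeloid, T and B cells), Igf2bp1 was closest to Isg20, Dlx4 and Gm45187 (r = 0.978 each), Igf2bp2 to Igsf3, Il33 and Plod2 (r of 0.967 to 0.968), Igf2bp3 to Ptrhd1, Arsg and Clta (r of 0.840 to 0.863) and Hmga2 to Plvap, Pthlh and Tff2 (r of 0.959 to 0.983). All these points share libraries and depth, are not replicates, and were given no p. The highest r among 13176 genes is high by selection.

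The rest of the pathway was described with lists of genes chosen by function. Counts of called list genes stand beside the share called among all genes tested. That share was 6.63% for BTYNB over control, 8.79% for anti-PD-1 over control, 9.78% for combination over anti-PD-1 and 0.638% for combination over BTYNB. Of 16 reported let-7 targets other than the members, all passed 100 UMIs, and their median log2 ratio was 0.06 for BTYNB over control, 0.16 for anti-PD-1 over control, -0.18 for combination over anti-PD-1 and -0.07 for combination over BTYNB, against 0.00, -0.06, 0.05 and -0.01 over all genes tested. Outside Cd24a-high cells the median for anti-PD-1 over control was 0.02. Between BTYNB and control, Arid3a was called higher (3.35 against 1.44 CPM) and Hmga1 lower. Between anti-PD-1 and control, 3 were higher, namely Ccnd1, cyclin D1 (900 against 583 CPM), Mycn (2.89 against 1.28 CPM) and Arid3b (2.35 against 1.04 CPM), and Thbs1, thrombospondin, was lower (34.9 against 59.3 CPM). In combination against anti-PD-1, Hmga1 and Ccnd1 (484 against 900 CPM) were among those called lower and Thbs1 was called higher (64.5 against 34.9 CPM). Myc, the mRNA best known as an Igf2bp1 client, was at 144, 155, 131 and 179 CPM and was not called in any contrast.

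Of 13 genes for let-7 maturation and decay, 11 passed 100 UMIs and 1, the exonuclease Dis3l2, was called, higher in combination than in anti-PD-1 (15.5 against 9.54 CPM). Dicer1, which cuts the let-7 precursor, stood at 12.8, 13.3, 11.9 and 11.7 CPM. Mir99ahg, a host transcript of let-7c, stood at 29.0, 46.9, 30.2 and 63.6 CPM, higher in both libraries that received BTYNB. It was added after its values were seen, does not measure mature let-7, and no host of another let-7 miRNA is described. Among other fetal RNA-binding proteins, Msi1, a Musashi protein, was called higher in BTYNB than control (29.3 against 18.2 CPM) and in combination than anti-PD-1 (30.3 against 16.4 CPM), and Msi2 stood at 295, 355, 262 and 321 CPM.

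The Igf2 axis that gave the Igf2bp family its name was nearly silent at its source, with Igf2 at 0.0133, 0.0518, 0.0121 and 0 CPM in tumour-gated cells, where 3 counts, the floor for a count of 0, come to 0.0537 CPM in combination. H19, the imprinted RNA beside Igf2 and a known Igf2bp ligand, stood at 4.19, 12.9, 5.50 and 2.56 CPM and was called higher in BTYNB than in control and lower in combination than in anti-PD-1 or BTYNB. Igf2r, which clears Igf2, was called lower in combination than in anti-PD-1 (28.8 against 44.2 CPM). It was also lower in BTYNB than in control (32.8 against 48.6 CPM), short of the call. Igf1r stood at 119, 117, 90.1 and 119 CPM. None of 6 mRNP partners, among them Ybx1 at 864, 839, 849 and 890 CPM, and none of 8 m6A writers, readers and erasers was called in any of the 4 contrasts. With 0.638% to 9.78% of all genes called in a contrast, this does not set lists so short apart. Because the contrasts share libraries and no list was tested, these counts describe the 4 libraries only.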

How the data were processed

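Whole-transcriptome single-cell libraries were made with BD Rhapsody. According to the study's methods, the authors processed reads with the BD Rhapsody Sequence Analysis Pipeline, and the submitters' processing notes name the build GRCm39. The deposited matrices hold raw UMI counts per gene and cell (26052 to 28089 genes a library).

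The 4 matrices were joined on gene symbol. Cells with under 200 genes or over 33% mitochondrial UMIs were removed, which left 7834, 18283, 12019 and 7042 cells. The study's methods call multiplets with scDblFinder. No doublet caller was run here, and an alternative left out the 5% of tumour-gated cells with the most UMIs. Cells in the tumour gate were kept out of the leukocyte gates, and cells in more than 1 leukocyte gate were counted in each. UMIs were summed per library and gate and given as CPM with exact Poisson intervals. Ratios used the exact conditional interval of a pair of counts, shares the Clopper-Pearson interval, and thinning its hypergeometric expectation. Differences between log2 ratios used a normal approximation. Calls used a pseudocount of 1 CPM. The functions were tested on simulated data. Named genes were all members, list genes called in any contrast, 7 list genes regardless of value (Msi2, Hmga1, Igf2, Igf1r, Dicer1, Ybx1, Myc), and for each member the 3 most alike. A called list gene is not reported here. Members and lists were chosen with earlier results of these data known, and Malsu1, Hmga2-ps1 and Mir99ahg were added after their values were seen. Python 3.11.15, numpy 2.4.6, scipy 1.17.1, pandas 2.3.3 and matplotlib 3.10.9 were used.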

Additional observations from a re-analysis of the deposited data

Results flagged for a closer look

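Igf2bp2 went opposite ways under the same contrast, each with a counting interval away from 0. The log2 ratio was 0.12 for BTYNB over control and -0.23 for combination over anti-PD-1 in tumour-gated cells. Between Cd24a-high and other tumour-gated cells its log2 ratio was -0.64 (control), 0.37 (anti-PD-1) and -0.58 (combination). With 1 library per group these differences were not tested.

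Cells that met no gate (356, 5950, 580 and 1052 cells) entered none of the comparisons. In them Igf2bp2 stood at 37.0 CPM and Hmga2 at 108 CPM in anti-PD-1, above the 26.9 and 21.9 CPM of the same cells in control. These cells also held 322 CPM of Krt8 in anti-PD-1 and 257 CPM in control.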

How the results depend on the processing

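No result had a test, so an alternative was read against the counting interval of the value. Ratios are on the log2(CPM + 1) scale, whereas the width of their interval is that of the plain ratio. For Igf2bp3 and the Lin28 genes the added 1 CPM shrinks shifts, so staying within the interval says little there. Lin28a for anti-PD-1 over control went from 0.22 to 0.60 with a pseudocount of 0.1 CPM and still counted as within. Of 288 recomputed ratios between libraries, 271 stayed within the interval, and none with an interval away from 0 turned its direction. Shares of cells with a UMI depend on depth by construction, and 62 of 96 recomputed at another depth or without thinning moved beyond their interval. Hmga2 for anti-PD-1 over control (2.86) was 2.98 with at least 10 keratin and Wt1 UMIs, 2.98 without Wt1, 2.95 in cells of at least 5000 UMIs, 2.94 with median-of-ratios scaling, 2.70 as a mean over cells and 1.26 outside Cd24a-high cells. For combination over anti-PD-1 (-3.50) it was -3.61 with at least 10 keratin and Wt1 UMIs, -3.39 without the 5% of deepest cells, -1.92 outside Cd24a-high cells and -3.75 in non-cycling cells. It was -0.98 in non-cycling cells for BTYNB over control (-0.84) and 0.35 without the deepest cells for combination over BTYNB (0.19). Igf2bp2 was 0.31 for anti-PD-1 over control and -0.00689 for combination over anti-PD-1 outside Cd24a-high cells, 0.00755 for BTYNB over control as a mean over cells, and 0.25 for combination over BTYNB in non-cycling cells. Igf2bp1 was -0.10 for BTYNB over control in non-cycling cells (0.09).

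Tumour over myeloid depended on which myeloid cells were taken. Without keratin or Wt1 UMIs in them, Igf2bp2 was 2.33, 3.09, 1.85 and 2.63, Hmga2 2.67 in control and 2.98 in anti-PD-1, Igf2bp1 3.30 in combination and Igf2bp3 -2.20 in anti-PD-1. With every cell that met the myeloid gate, Igf2bp2 was 2.20 in BTYNB and Hmga2 0.59 in anti-PD-1. In cells of at least 5000 UMIs of anti-PD-1, Igf2bp2 turned from 0.54 to -0.0641, Igf2bp3 was -0.0876 and Hmga2 0.26. In anti-PD-1, Hmga2 in cycling over non-cycling cells (0.41) was 0.70 for at least 6 against 0 UMIs and 0.29 in cells of at least 5000 UMIs, and in Cd24a-high over other cells (2.89) it was 3.63 for at least 10 against 0 UMIs and 3.07 in non-cycling cells. The median of the fetal RNA-binding protein list for anti-PD-1 over control turned from -0.17 to 0.0508 outside Cd24a-high cells. The cause of these shifts was not tested. No paired analysis was possible because each group is 1 library. Depth limits Igf2bp3 and the Lin28 genes, and myeloid levels in control and anti-PD-1 rest on 0 to 57 UMIs a member, other than Hmga2 in anti-PD-1 (198 UMIs).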
